A study of Mus musculus with 9 samples.

Results

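Autotaxin and 5 receptors for lysophosphatidic acid (LPA) were followed in fibroblasts made to overexpress the cell cycle inhibitor p21 or p16. The members are 6 rows of the count table chosen by gene symbol: Enpp2, which encodes autotaxin, and the receptor genes Lpar1, Lpar2, Lpar3, Lpar4 and Lpar6. They are 6 of 24062 genes in the table, and all 6 were among the 14572 genes that passed a filter on low counts and were tested. The set was selected on results already known from these libraries, so the levels and fold changes of its members are given as descriptions, and counts of members past a threshold are given without being read as evidence.

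The cells were mouse embryonic fibroblasts of the C57BL/6 strain, a mixed primary culture grown from embryos. RNA was sequenced from 3 libraries of cells carrying the empty lentiviral vector (control), 3 of cells overexpressing p21 by lentivirus and 3 of cells overexpressing p16 by lentivirus, each 10 days after overexpression. The labels describe the p21 and p16 cells as senescent, a lasting arrest of division, and the status label of the control cells reads senescent too. No untransduced cells were among the libraries, and the labels do not say whether the 3 replicates of a group were separate cultures. P-values therefore reflect library-to-library spread, which may be technical between replicates 1 and 2. In every group replicate 3 differed from them in the sex-linked genes Xist and Ddx3y. The records of the p16 libraries were added apart from those of the other groups, and a difference in handling cannot be told apart from the p16 construct.

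LPA is a small lysophospholipid that acts outside cells as a growth and wound signal. Autotaxin is a secreted lysophospholipase D of the ENPP family that makes LPA by cutting choline from lysophosphatidylcholine. LPA then binds G protein-coupled receptors of separate families: LPA1, LPA2 and LPA3 belong to the EDG family together with the receptors for sphingosine 1-phosphate (S1P), while LPA4 and LPA6 are closer to the P2Y purine receptors. In fibroblasts LPA is known to drive contraction, migration and division, and lipid phosphate phosphatases at the cell surface end the signal.

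On the mouse assembly GRCm38 in the GENCODE M21 annotation, the genes lie on 6 chromosomes. Enpp2 runs over chr15:54838901-54952892 on the minus strand, Lpar1 over chr4:58435255-58553898 on the minus strand, and Lpar2 over chr8:69822429-69831102 on the plus strand. Lpar3 lies at chr3:146220963-146286186, Lpar4 at chrX:106920625-106933900 and Lpar6 at chr14:73237895-73243294, all on the plus strand. Lpar6 is a gene of 1 exon that sits inside the span of Rb1, the retinoblastoma gene, which is read from the other strand, and the annotated exons of the pair share 408 bases. Exons of Enpp2 share 345 bases with the antisense transcript Gm26684, a name that is not a row of the count table. The library kit does not mark the strand, so reads from the shared bases cannot be assigned to one gene by strand.

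Sequences just before starts annotated in RefSeq are shown for Lpar3 and Lpar1, the receptor genes with the lowest and the highest level per length, and for Lpar4, whose window holds the most motif matches. RefSeq start windows on GRCm38.p6 matched 5 of the 6 members, Enpp2 being the exception, and each window below holds the 250 bases before the start, written 5′ to 3′ on the strand of the gene. Capitals mark matches to the motifs searched, on either strand.
Lpar3, chr3:146220711-146220960, plus strand: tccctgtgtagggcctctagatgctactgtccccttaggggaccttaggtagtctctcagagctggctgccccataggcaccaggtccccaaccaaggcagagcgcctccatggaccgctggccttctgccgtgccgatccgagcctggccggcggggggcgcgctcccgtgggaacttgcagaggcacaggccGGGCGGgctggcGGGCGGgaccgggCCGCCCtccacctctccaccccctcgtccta
Lpar1, chr4:58553492-58553741, minus strand: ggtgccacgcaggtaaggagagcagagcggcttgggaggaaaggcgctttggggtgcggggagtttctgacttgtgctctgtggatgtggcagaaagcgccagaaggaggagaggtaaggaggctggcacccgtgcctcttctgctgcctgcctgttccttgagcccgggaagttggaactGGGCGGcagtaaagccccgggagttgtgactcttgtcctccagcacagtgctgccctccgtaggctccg
Lpar4, chrX:106920375-106920624, plus strand: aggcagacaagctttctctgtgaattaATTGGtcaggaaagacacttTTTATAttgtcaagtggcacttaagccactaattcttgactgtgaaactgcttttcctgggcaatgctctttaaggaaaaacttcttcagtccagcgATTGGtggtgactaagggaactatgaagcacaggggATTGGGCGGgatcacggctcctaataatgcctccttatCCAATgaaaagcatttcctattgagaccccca

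The Lpar3 window held 3 matches to the GC box GGGCGG, the element known to bind Sp1-family factors, with their first bases at -56, -44 and -31 from the start. Its GC content was 69.6%, against 62% in the Lpar1 window, 43.6% in the Lpar4 window and a median of 52.4% over 32851 windows of all genes. The Lpar1 window shown, the most upstream of its 3, held 1 GC box. It lay inside the GENCODE span of Lpar1, which on the minus strand starts at chr4:58553898. The Lpar4 window held 1 GC box, 4 matches to the CCAAT box CCAAT, 1 of which overlapped the GC box, and 1 match to the TATA box TATAAA, read from the opposite strand at -203. Lpar2 had 1 GC box and the only AP-1 match (TGANTCA) among the members, and the Lpar6 window had no match to any motif searched. A GC box was in 32.7% of all windows, a CCAAT box in 33.8%, a TATA box in 12.4% and an AP-1 match in 6.75%. Neither the E2F letters TTTCCCGC and TTTGGCGC, found in 0.895% and 0.417% of windows, nor the CHR element TTTGAA, found in 16%, nor the CRE TGACGTCA, found in 1.55%, occurred in a member's window. These matches describe letters in the window and do not show binding.

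The libraries held 56.9 M to 76.1 M counts (M, 1e6). Cdkn1a, the p21 gene, was at 1085 to 1218 CPM (counts per M of library size after scaling) in the p21 libraries and 316.7 to 435.2 in the other 6. Cdkn2a, the p16 gene, was at 944.4 to 1069 CPM in the p16 libraries, 59.6 to 68.84 in control and 79.59 to 112.9 in p21 libraries. Xist, which is transcribed from an inactive X chromosome, was at 157.8 to 396.8 CPM in the third replicate of every group and at most 1.344 CPM in the other 6 libraries. Ddx3y, a gene of the Y chromosome, was at 50.08 to 68.54 CPM in those 6 libraries. In the third replicates it was at 1.102 CPM in control, 10.77 in p21 and 1.265 in p16, so p21 replicate 3 held both transcripts. Of 12 fibroblast markers, all of which passed the filter, Col1a1 was at 10880 to 17260 CPM, while Dcn was at 1.565 to 5.217 CPM and Lum at 0.2494 to 1.562 CPM. The markers taken as defining adipocytes, oligodendrocytes and Schwann cells, endothelium and epithelium were low. Adipoq had at most 2 reads in any library and Plin1 at most 4 (adipocytes), and Olig2 had 0 and Sox10 at most 8 (oligodendrocytes and Schwann cells). Pecam1 had at most 20 and Cdh5 at most 22 (endothelium), and Epcam had at most 14 and Cdh1 at most 16 (epithelium). Less specific markers of the same lists had more reads, up to 1074 for Fabp4, 254 for Mbp, 400 for Esam and 702 for Krt18. The markers taken as defining smooth muscle and pericytes, Myh11 and Rgs5, were not low. Myh11 was at 56.71 to 69.03 CPM in control, 134.8 to 163.9 in p21 and 92.14 to 109.3 in p16 libraries. Rgs5 was at 7.694 to 9.204 CPM in control, 12.53 to 15.22 in p21 and 14.33 to 16.55 in p16 libraries. Emcn, of the endothelial list, was at 1.343 to 1.759 CPM in control and 2.355 to 5.436 in p21 and p16 libraries. Macrophage markers did move, and 10 of 14 tested were higher in p21 than in control libraries. Their summed level was 27.06 to 48.32 CPM in p21, 13.78 to 16.87 in control and 11.28 to 15.9 in p16 libraries. Of the defining macrophage markers, Ptprc had 14 to 53 reads a library, Emr1 9 to 76 and Csf1r 68 to 251.

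Enpp2, the only member that makes LPA rather than sensing it, was lower in both overexpressing groups than in the empty-vector cells, and lowest with p16. The control libraries held 13.6, 18.7 and 21.2 CPM in replicates 1, 2 and 3, the p21 libraries 13.5, 7.464 and 8.65 CPM, and the p16 libraries 6.46, 4.11 and 7.457 CPM. No p21 or p16 library reached the lowest control library, but p21 replicate 1 came within its counting error: 980 reads gave 12.66 to 14.37 CPM (95% exact Poisson interval, counting error only), against 12.79 to 14.45 CPM from the 1043 reads of control replicate 1. The other p21 libraries were far from the controls, so the p21 group was split. In bulk RNA, fewer cells that express a gene and less RNA per cell cannot be told apart.

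**Figure D1:**
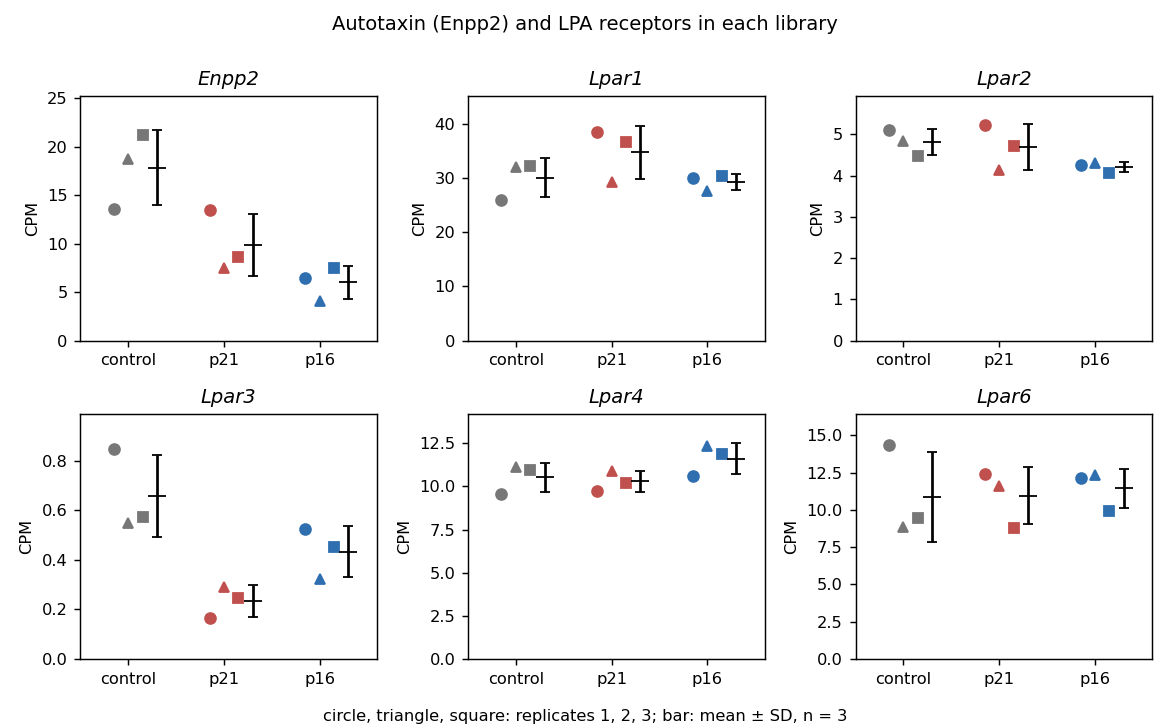
Level of each member in each library, in CPM (linear axis from 0), with circles, triangles and squares for replicates 1, 2 and 3 and bars for the mean ± SD (n = 3 libraries a group). The mean of Enpp2 is 17.8 CPM in control, 9.87 in p21 and 6.01 in p16 libraries and Lpar3 is lowest in p21 libraries, while the groups of Lpar1, Lpar4 and Lpar6 overlap.

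The mean level of Enpp2 was 17.8 ± 3.86 CPM in control (SD, n = 3), 9.87 ± 3.20 in p21 and 6.01 ± 1.72 in p16 libraries. The fitted log2 fold change was -0.85 ± 0.27 (SE) for p21 against control, 1.80-fold lower. For p16 against control it was -1.57 ± 0.27, 2.97-fold lower. Both comparisons use the same 3 control libraries, so they are not independent of each other. Which library was left out mattered for p21: the log2 fold change was -1.14 without p21 replicate 1 and -0.68 without p21 replicate 2, and over the 16 alternative settings it ranged from -1.14 to -0.62. For p16 the range was -1.75 to -1.35.

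Between the constructs, Enpp2 was higher in p21 than in p16 libraries by 0.72 ± 0.27 on the log2 scale, but the groups only just failed to overlap, at 7.464 CPM in the lowest p21 library and 7.457 CPM in the highest p16 library. Without p21 replicate 1 that difference was 0.42, and without p16 replicate 2 it was 0.51. Pdgfra, a receptor for platelet-derived growth factor that marks mesenchymal fibroblasts, was the only 1 of 12 fibroblast markers that fell in p21 cells, while 3 (Fn1, S100a4 and Thy1) rose. Pdgfra was at 20.5 to 39.7 CPM in control, 10.2 to 16.5 in p21 and 14.9 to 22.4 in p16 libraries, and its part in the Enpp2 result was not tested; Fn1 was at 10090 to 14290 CPM in control and 21970 to 22840 in p21 libraries. The summed adipocyte markers were at 19.4 to 30.5 CPM in control, 16.6 to 22.8 in p21 and 20.2 to 23.9 in p16 libraries. Of 3 tested, 1 was called lower in p21 than in control libraries and 0 higher. Cebpa was at 5.25 to 8.81 CPM in control and 3.36 to 5.46 in p21 libraries. Lpl was at 4.62 to 9.98 and 3.87 to 5.08, and Fabp4 at 5.93 to 13.71 and 7.3 to 14.79. Their part in the Enpp2 result was not tested.

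Lpar3, a receptor known for coupling to Gq and Gi proteins, was the least abundant member and the receptor with the widest relative range. It had 65, 40 and 41 reads in control replicates 1, 2 and 3, 12, 20 and 14 in p21, and 32, 22 and 31 in p16. In CPM these were 0.848, 0.549 and 0.572 in control, 0.165, 0.292 and 0.245 in p21, and 0.525, 0.323 and 0.451 in p16 libraries. Every p21 library was below every p16 library, and every p16 library was below every control library. The separation of p16 from control was narrow: p16 replicate 1, at 0.525 CPM with a counting interval of 0.359 to 0.740, lay inside the interval of control replicate 2, 0.393 to 0.748 CPM. That of p21 from p16 was as narrow, with 20 reads in p21 replicate 2 (0.178 to 0.451 CPM) and 22 in p16 replicate 2 (0.202 to 0.489 CPM).

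The fitted log2 fold change of Lpar3 was -1.49 ± 0.33 for p21 against control, 2.80-fold lower, and -0.60 ± 0.31 for p16 against control. Between p21 and p16 it was -0.88 ± 0.34, 1.84-fold lower in p21. By the group means p21 gave the lowest Lpar3 and p16 the lowest Enpp2. Neither difference between the constructs passed in the main edgeR fit, which has no replicate block, while Enpp2 passed with the block and with DESeq2. The p21 value of Lpar3 against control stayed between -1.68 and -1.25 over the 15 alternatives that kept the gene. Its p16 value lay between -0.76 and -0.37, the latter without control replicate 1. A filter of at least 1 CPM in 3 libraries removed Lpar3. Each library gave Lpar3 only 12 to 65 reads.

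Lpar1, the receptor known as the main LPA receptor of fibroblasts, was the most abundant receptor and differed little between groups. It was at 26.0, 32.1 and 32.3 CPM in control, 38.5, 29.3 and 36.7 in p21 and 29.98, 27.6 and 30.4 in p16 libraries. The groups overlapped in all 3 comparisons, and p21 replicates 1 and 3 were the highest of the 9 libraries. The log2 fold change was 0.21 ± 0.11 for p21 against control, with a 95% interval of -0.04 to 0.46, and -0.04 ± 0.11 for p16 against control, with an interval of -0.29 to 0.21. A small rise in p21 libraries is therefore inside the interval, and so is no difference. Without p21 replicate 2 the p21 value was 0.32 and passed the edgeR threshold, and without control replicate 1 it was 0.12. Between p21 and p16 the log2 fold change was 0.25 ± 0.11, with a 95% interval of 0 to 0.5 after rounding. At each replicate number the p21 library was above the p16 library. The difference between p21 and p16 passed neither in the main fit nor in any of the 16 alternatives.

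Lpar2, an EDG-family receptor whose C-terminal tail is known to bind PDZ scaffold proteins, had the least spread in the p16 group of any member. The control libraries were at 5.11, 4.84 and 4.48 CPM, the p21 libraries at 5.23, 4.13 and 4.71, and the p16 libraries at 4.26, 4.30 and 4.06. All p16 libraries were below all control libraries, by a small margin between 4.48 and 4.30 CPM, and p21 overlapped both. The log2 fold change was -0.19 ± 0.11 for p16 against control (95% interval -0.45 to 0.06) and -0.04 ± 0.11 for p21 against control (-0.29 to 0.22).

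Lpar4, a receptor on the X chromosome that is known to couple to Gs as well as to G12/13 proteins, overlapped between groups in all 3 comparisons. It was at 9.57, 11.1 and 10.9 CPM in control, 9.74, 10.9 and 10.2 in p21 and 10.6, 12.4 and 11.9 in p16 libraries. Replicate 2 was the highest of each group. The libraries with high Xist, the third of each group, lay between the other two. The log2 fold change was -0.03 ± 0.09 for p21 (95% interval -0.23 to 0.17) and 0.14 ± 0.09 for p16 (-0.06 to 0.34), each against control. At each replicate number, however, the p16 library was above both the control and the p21 library. With the replicate number as a block the log2 fold change was 0.14 for p16 against control and -0.17 for p21 against p16, and neither passed.

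Lpar6, a receptor known from inherited hair loss, was more variable among control libraries than between groups. Control replicate 1 was at 14.3 CPM, against 8.85 and 9.43 in the other two, while the p21 libraries were at 12.4, 11.6 and 8.79 and the p16 libraries at 12.1, 12.3 and 9.94. The log2 fold change was 0.01 ± 0.19 for p21 and 0.07 ± 0.19 for p16, each against control, with a 95% interval of -0.42 to 0.44 for p21 and of -0.36 to 0.51 for p16. Without control replicate 1 the values were 0.27 and 0.33. Rb1, whose exons overlap it, did not follow the same pattern among controls. Control replicate 1 was the lowest control for Rb1, at 10.8 CPM against 13 and 11.9, and the highest for Lpar6. In p16 libraries both genes had the same order, with Rb1 at 13.1, 13.14 and 11.43 CPM. In p21 libraries replicate 1 was the highest for both, with Rb1 at 14.35, 12.24 and 12.92 CPM. The part of reads from the shared bases was not tested.

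**Figure D2:**
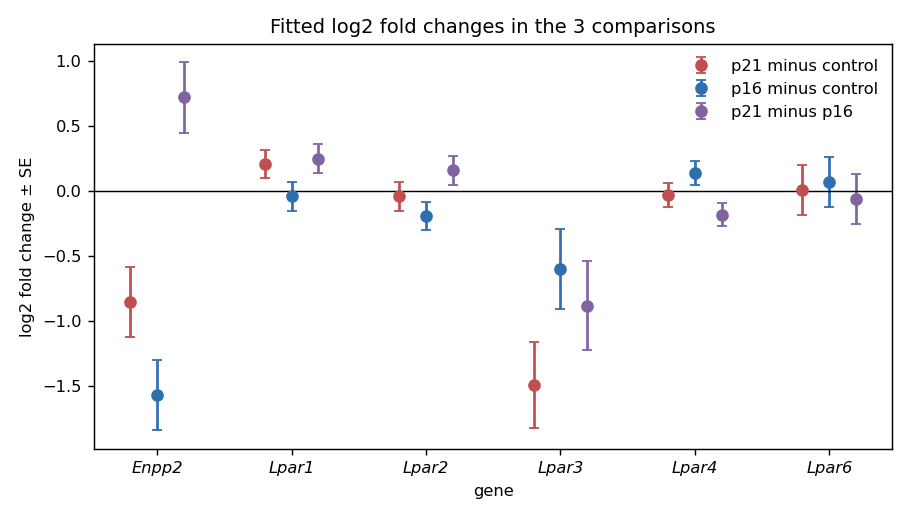
Fitted log2 fold change of each member (points) with its standard error (bars) in the 3 comparisons, with 0 as no difference; the p21 and p16 comparisons share the control libraries. Enpp2 lies at -0.85 and -1.57 against control and Lpar3 at -1.49 and -0.60, while the 4 other receptors lie between -0.19 and 0.25 in all 3 comparisons.

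Of the 6 members, 2 (Enpp2 and Lpar3) had an edgeR adjusted p under 0.05 for p21 against control, both lower, where 39.9% of all genes tested were called. For p16 against control it was 1 member, Enpp2, where 7.22% were called. Between p21 and p16 no member passed with edgeR, where 12.8% of genes were called; Enpp2 and Lpar3 had an unadjusted p under 0.05, and Enpp2 passed with DESeq2 and with the replicate number as a block. The Enpp2 call in p21 was lost when control replicate 2 or 3, or p21 replicate 2 or 3, was left out, and with replicates 1 and 2 only. The Enpp2 call in p16 was lost without p16 replicate 1 or 2. Libraries did not overlap for 2 members in p21 against control, where 49.8% of genes did not overlap, for 3 in p16 against control (28.7%) and for 2 between p21 and p16 (36%). The median log2 fold change over the 6 members was -0.04 for p21 and -0.12 for p16, beside -0.011 and -0.01 over all genes tested. Nothing is read from these counts, since the members were chosen with such values known.

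Levels of different genes were compared as CPM per kilobase of annotated exon, with all exons of a gene merged. This adjusts for length only roughly, since the transcripts expressed and the annotation behind the counts are not known. Lpar1 was first in every group, at 7.02 ± 0.825 in control, 8.12 ± 1.14 in p21 and 6.84 ± 0.345 in p16 libraries (mean ± SD, n = 3). Enpp2 came next in control libraries at 3.08 ± 0.668, where its range overlapped those of Lpar4 at 2.49 and Lpar6 at 2.01. In p21 libraries Enpp2 was at 1.71, below the means of Lpar4 at 2.43 and Lpar6 at 2.03 with overlapping ranges, and in p16 libraries it was at 1.04, where its range overlapped that of Lpar2 at 0.720. By its mean, Enpp2 was thus above Lpar4 and Lpar6 in control libraries and below both with either construct, while the means of the receptors had the same order in every group. Lpar4 and Lpar6 overlapped in control and p21 libraries, and Lpar4 was above Lpar6 in all p16 libraries. Lpar3 was last of the members at 0.266, 0.0950 and 0.176 in control, p21 and p16.

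The summed receptor level per kilobase hardly moved, at 12.6 ± 0.347 in control, 13.5 ± 1.07 in p21 and 12.6 ± 0.0942 in p16 libraries. Lpar1 made up 55.5% of it in control, 60.0% in p21 and 54.2% in p16 libraries, with ranges that overlapped. The share of Lpar4 was 19.7%, 18.1% and 21.7%, and that of Lpar6 was 16.04%, 15.1% and 16.8%. The share of Lpar3 was 1.74% to 2.81% in control, 0.461% to 0.956% in p21 and 1.05% to 1.68% in p16 libraries. Lpar5, the LPA receptor outside the set, had 0 to 3 reads per library, where the count of 0 in control replicate 2, taken to allow up to 3 counts, allows up to 0.0412 CPM.

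**Figure D3:**
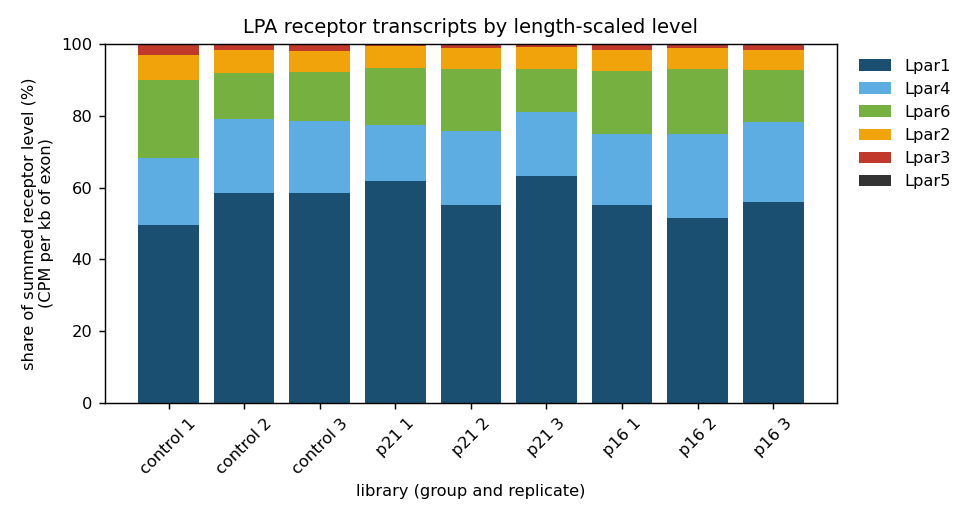
Share of the summed LPA receptor level, in CPM per kilobase of exon, that each receptor gene held in each of the 9 libraries (stacked to 100%). Lpar1 holds 49.7% to 63.3% in every library, and the Lpar3 band is thinnest in the 3 p21 libraries.

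The genes whose levels followed each member most closely were ranked by Pearson's r of log2 CPM over the 9 libraries, as a description over libraries that share group and replicate structure. The ranking ran over 14571 genes, so high values are found at its top and no link between genes is read from them. Enpp2 was followed by Ppard at 0.948, a nuclear receptor for lipids, and by Cln8 at 0.940. Ppard moved far less than Enpp2, with means of 49.84 CPM in control, 47.85 in p21 and 44.59 in p16 libraries. Lpar1 was followed by Rapgef4 at 0.977, an exchange factor activated by cyclic AMP, and by Rab3d at 0.963. Rapgef4 was low, with means of 0.328 CPM in control, 0.493 in p21 and 0.283 in p16 libraries. For Lpar4 the highest was 9330151L19Rik at 0.915, then Vps13b at 0.897, and for Lpar6 it was Znhit6 at 0.956, then Pfdn2 at 0.937. For Lpar2 the highest r was 0.891 with 4930525G20Rik, a gene under 1 CPM. Lpar3 was under the level set for this ranking. Among the members themselves, r between Enpp2 and Lpar3 was 0.30 and the lowest r was -0.76, between Lpar2 and Lpar4.

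The surroundings of the pathway were described with 10 lists that hold 128 other genes, of which 107 were tested. For p21 against control 31 were higher and 17 lower by edgeR, 44.9% of those tested beside 39.9% of all genes. For p16 against control 6 were higher and 1 lower, 6.54% beside 7.22%, and with the replicate number as a block 25 passed. Between p21 and p16 11 were higher and 8 lower in p21, 17.8% beside 12.8%, and 34 passed with the block. The counts rest on single libraries: between p21 and p16 only 7 passed without p21 replicate 1 or p16 replicate 1, 8 without p16 replicate 3, 9 without p21 replicate 2, 11 without p16 replicate 2 and 12 without control replicate 2, and for p16 against control 4 passed without p16 replicate 1.

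Among the 5 tested relatives of autotaxin in the ENPP family, 2 rose and 2 fell in p21 cells. Enpp5, a membrane-bound family member, rose from 7.55 ± 0.330 CPM in control to 18.2 ± 1.71 in p21 libraries (edgeR adjusted p = 1.14e-05) and to 11.0 ± 0.334 in p16 libraries (adjusted p = 0.00777). It was also higher in p21 than in p16 libraries (adjusted p = 0.00111). Enpp3, a nucleotide-cleaving ectoenzyme, fell by 1.17 ± 0.28 on the log2 scale in p21 cells (adjusted p = 0.00835). Enpp6 also rose and Enpp4 also fell in p21 cells, but both calls were lost when any of several single libraries was left out. Enpp1, which makes pyrophosphate, was at 49.4 CPM in control, 40.7 in p21 and 43.6 in p16 libraries and was not called.

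Of 16 tested enzymes that supply LPA or the lysophospholipids it is made from, 6 rose and 3 fell in p21 cells, 1 rose in p16 cells, and 2 were higher and 1 lower in p21 than in p16 cells. Pla1a, a secreted phospholipase that frees lysophosphatidylserine, rose 2.78-fold with p21, from 1.29 to 3.59 CPM (edgeR adjusted p = 0.000236), and 2.24-fold with p16 (adjusted p = 0.00893). Pla2g6, a calcium-independent phospholipase A2, rose 1.47-fold with p21 (adjusted p = 8.98e-05) and was 1.33-fold higher with p21 than with p16 (adjusted p = 0.00251). Pla2g15, the lysosomal phospholipase A2, rose 1.45-fold with p21 (adjusted p = 0.000241). Pla1a, Pla2g6 and Pla2g15 were thus among the 6 genes of this list that rose in p21 cells, where 3 others fell.

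Of 17 tested genes that dephosphorylate or re-acylate LPA and related lipids, 2 rose and 2 fell in p21 cells, 1 fell in p16 cells and 3 were higher in p21 than in p16 cells. Those 3, Lpcat2, Acp6 and Mboat7, kept that call in 11, 9 and 4 of 16 alternatives. Mboat1, an acyltransferase for lysophospholipids, fell by 0.84 ± 0.09 on the log2 scale with p21 (edgeR adjusted p = 0.000112) and by 0.59 ± 0.09 with p16 (adjusted p = 0.00827). Lpcat2, an acyltransferase that also makes platelet-activating factor, rose 1.73-fold with p21 (adjusted p = 0.00258), as did macrophage markers, whose part in this was not tested. The lipid phosphate phosphatases Plpp1 and Plpp3, listed as Ppap2a and Ppap2b, were not called: Ppap2a was at 264 CPM in control and 328 in p21 libraries, and Ppap2b at 53.5 and 65.4.

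Downstream of the receptors, 4 of 9 tested G protein genes rose in p21 cells, where 39.9% of all genes tested were called. None was called in p16 cells, where 2 had an unadjusted p under 0.05 and 0 passed with DESeq2, and 2 were higher in p21 than in p16 cells. Of these calls, Gnaq kept its p21 call in 8 of 16 alternatives and Gna12 in 9. Gnas kept its call between p21 and p16 in 5 of 16. Gna11, a Gq-family subunit, rose 1.30-fold with p21 (edgeR adjusted p = 0.000974), and Gnas, the Gs subunit, rose 1.18-fold (adjusted p = 0.00132).

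Of 20 tested genes listed for the response to LPA through the SRF and YAP transcription regulators, 7 rose and 5 fell in p21 cells. The list also holds Srf and its cofactors Mkl1 and Mkl2. The genes that rose were Il6 and 6 contractile genes, among them Actg2, which rose 1.41-fold (edgeR adjusted p = 0.000443), and Tagln, which rose 1.35-fold (adjusted p = 0.00292). Smooth muscle markers as a list were at 766 to 785.3 CPM in p21, 651.2 to 724.4 in p16 and 519.1 to 587.7 in control libraries, with 4 of 8 higher than control in each construct, and their part in this was not tested. The genes that fell were Srf itself, by 0.32 ± 0.04 on the log2 scale (adjusted p = 0.000401), and the immediate-early type genes Fos, Egr1, Egr2 and Cyr61. In p16 cells 1 rose, Actg2, 1.38-fold (adjusted p = 0.00776), and between p21 and p16 cells 3 were lower with p21. Vcl and Fosl1, of the same kinds, were not called with p21. Nor were Ctgf, Ankrd1 and Amotl2, which are listed with Cyr61 as targets of YAP.

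The S1P receptors are the nearest relatives of Lpar1, Lpar2 and Lpar3. Of 8 tested genes of S1P receptors and metabolism, 3 rose and 3 fell in p21 cells, and 2 rose in p16 cells. The 3 that fell were receptors: S1pr3 went from 99.9 ± 18.9 CPM in control to 43.9 ± 16 in p21 libraries, 2.28-fold lower (edgeR adjusted p = 0.00344), S1pr1 was 1.33-fold lower (adjusted p = 0.000887), and S1pr2 was also called. The 3 that rose were enzymes, Sphk1, which makes S1P, 1.70-fold (adjusted p = 0.000136), Sgpl1, the S1P lyase, 1.33-fold (adjusted p = 9.38e-05), and Sphk2. Of the LPA receptors of this family, Lpar1 and Lpar2 overlapped between p21 and control libraries, and Lpar3 was lower in every p21 library.

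Of 9 tested P2Y and protease-activated receptors related to Lpar4 and Lpar6, 3 rose in p21 cells (P2ry6, F2rl2 and F2r), and none was called in p16 cells or between p21 and p16 cells, where 3 and 0 had an unadjusted p under 0.05 and 1 and 0 passed with DESeq2. P2ry6, a receptor for UDP, rose 1.956-fold (edgeR adjusted p = 0.0146). The p21 call of F2r was kept in 11 of 16 alternatives. Of 3 tested genomic neighbours, Taf2, beside Enpp2 on chromosome 15, fell by 0.31 ± 0.05 on the log2 scale with p21 (adjusted p = 0.00105), and Rb1 was not called. Of the 6 other listed receptors that respond to LPA or its relatives, 2 were tested and none was called in any comparison by edgeR or DESeq2 or at an unadjusted p under 0.05, which gave 0 in each. Pparg, a nuclear receptor and 1 of these, was at 7.48 CPM in control, 6.63 in p21 and 7.64 in p16 libraries.

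**Figure D4:**
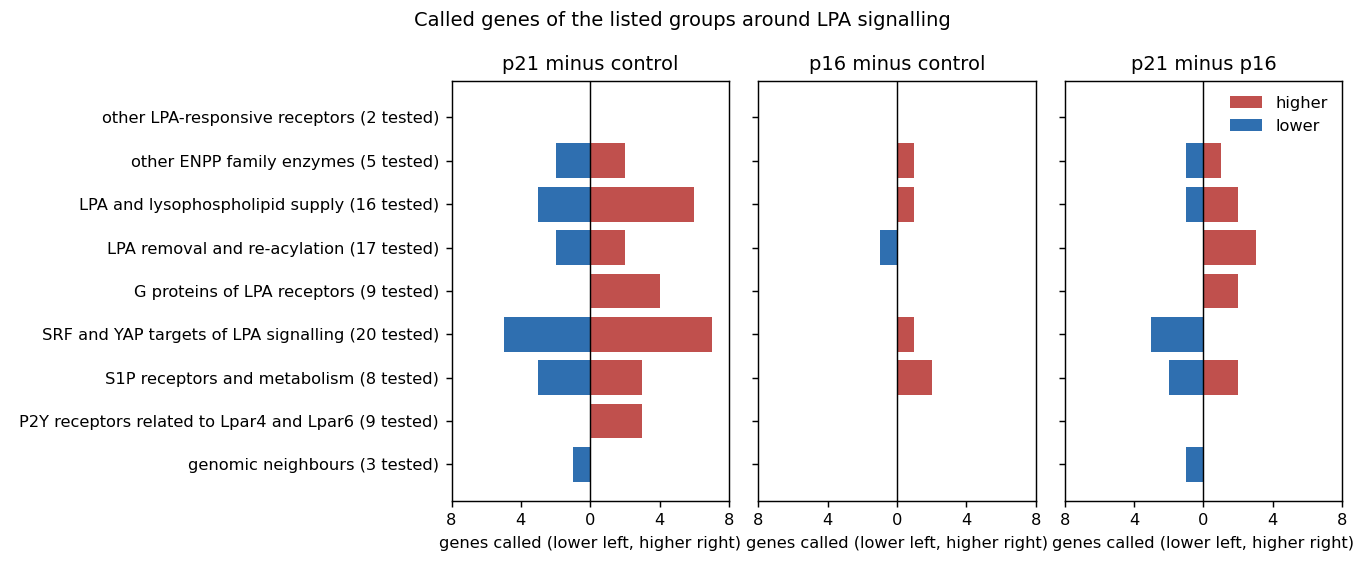
Number of genes called by edgeR in the lists shown (1 of the 10 is left out) at an adjusted p under 0.05, lower (bars to the left) and higher (bars to the right), in the 3 comparisons. The p21 comparison has calls in both directions in several lists, such as 7 higher and 5 lower among the SRF and YAP targets, against 1 higher there for p16.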

How the data were processed

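RNA-seq counts from 9 libraries were analysed. The members and the gene lists were chosen with earlier results of these data known. The values are whole-number counts per gene symbol as deposited, which the authors did not normalise; the submitters' processing notes name build mm10, featureCounts 1.4.6, Subread, Bowtie2 2.2.6 and TopHat2 2.0.14. The sources used here do not give the annotation, the strand setting or the treatment of multiply mapped reads. All columns were mapped to samples by the sample titles.

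Genes were kept by filterByExpr (minimum count 10), scaled by TMM and fitted over all 9 libraries as 3 group means with edgeR 4.0.16 (quasi-likelihood F test, R 4.3.3). P-values were adjusted by Benjamini-Hochberg over all 14572 genes, with a threshold of 0.05. Standard errors are the log2 fold change over the square root of F. CPM use the TMM factors, and log2 CPM a prior count of 2. The test was tried on simulated counts. Alternatives were DESeq2 1.42.0, library size only, no filter, a filter of 1 CPM in 3 libraries, the replicate number as a block, replicates 1 and 2 only, the compared groups only and leaving out each library.

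Libraries held 56.9 M to 76.1 M counts, and replicate pairs differed beyond sampling noise (chi-square per degree of freedom 10.37 to 101.2). Correlations of same-numbered libraries' deviations were 0.18, 0.03 and 0.49 for p21 with control and 0.25, 0.11 and 0.55 for p16 with control. For p21 with p16 they were 0.16, 0.29 and 0.48, and there each library was closest to the library of the same number. Replicate 2 of p21 and of p16 was closer to control replicate 1 (0.36 and 0.30) than to control replicate 2. The labels do not state a pairing. Named genes were the members, up to 4 called genes with the lowest adjusted p per list and comparison (or the most abundant tested gene where none was called), Lpar5 and Rb1 by name, and the 3 genes most like each member. Other listed genes named here were chosen after their values were seen. The genes of 1 of the 10 lists are counted in the totals and are not reported here.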

Additional observations from a re-analysis of the deposited data

How the results depend on the processing

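Over the 16 alternatives no member's log2 fold change changed sign where its groups differed without overlap, and each moved by less than the spread between replicates. Leaving out libraries could hardly have given another outcome on either point, so neither is read as a sign of stability. For Enpp2 in p21 against control the value ranged from -1.14 to -0.62, and 11 of the 16 alternatives kept the call. The count of genes called for p16 against control was 1052 and became 1808 with DESeq2, 2473 with the replicate block, 593 with replicates 1 and 2 only, 555 with only the compared groups fitted, and 222 to 949 when 1 library was left out, the lowest without p16 replicate 2, then p16 replicate 1 (284), control replicate 2 (375) and p16 replicate 3 (425). The count of listed genes there was 7 and became 14 with DESeq2, 25 with the replicate block and 4 to 10 with 1 library left out. Between p21 and p16, 1870 genes became 3496 with the replicate block and 600 to 2464 with 1 library left out, the lowest without p21 replicate 1, then p16 replicates 1 (789) and 2 (875), p21 replicate 2 (922) and p16 replicate 3 (959), and the 19 listed genes became 34 with the block and 7 to 25. For p21 against control no count moved by over 1.5 times. The block changed 1 member call, that of Enpp2 between p21 and p16. Of 285 alternatives for the members' log2 fold changes, 7 lost a call, all of Enpp2, 3 gained one (Lpar1 in p21 without p21 replicate 2, and Enpp2 between p21 and p16 with DESeq2 and with the block), 15 changed the sign of a difference that was not called, and 260 kept sign and call. Of 1085 for the other named genes, 138 lost a call, 1 gained one, 6 changed the sign of a difference that was not called, and 940 kept both. The 6 were Pparg in p21 against control without control replicate 1 (0.13), Pparg in p16 against control with replicates 1 and 2 only (-0.07), without control replicate 2 (-0.06) or 3 (-0.12), and F2r between p21 and p16 without p21 replicate 3 (-0.07) or p16 replicate 1 (-0.04). With 1 library left out these values ranged from -0.33 to 0.13, from -0.12 to 0.33 and from -0.07 to 0.11. No called difference changed sign in these alternatives. The causes of these shifts were not tested. Among the LPA receptors, depth limits Lpar3, with 12 to 65 reads a library, and Lpar5, with at most 3.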
